A study of Homo sapiens with 5 samples.

Results

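The clustered protocadherin genes lie side by side on chromosome 5 in an alpha, a beta and a gamma cluster, and their DNA methylation was read from human iPSCs by reduced representation bisulfite sequencing (RRBS). This method cuts DNA at CCGG sites, converts unmethylated cytosines with bisulfite and counts, in windows of 1000 bases, how many CpG cytosine calls stayed methylated. The β-value is that share, given here in percent. Windows were taken where the deposited table names a gene of the family (PCDHA, PCDHB or PCDHG) or where they lie within chr5:140780000-141520000 on hg38, which gave 160 of the 288391 windows of the table. By gene symbol, 30 of them belong to alpha, 26 to beta and 58 to gamma. Another 39 carry no symbol and 7 carry the symbol of another gene inside the interval.

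The cells were the established line 201B7, labelled as wild type and kept without feeder cells. They were exposed for 48 h to 1 nM etoposide (a topoisomerase II inhibitor), 1 µM propyl gallate (an antioxidant food additive), 1 µM theophylline (a phosphodiesterase inhibitor and adenosine receptor antagonist), 10 nM 5-aza-dc (an inhibitor of DNA methyltransferases) or 0.1% DMSO as the vehicle control. Each condition was read in 1 library from 1 cell line, so nothing here can be weighed against replicate error. The libraries held 188844850 to 228919184 calls in the shared windows. Calls of 1 read, and reads copied by PCR, are not independent. The 95% intervals (Wilson for single windows, binomial variances for means) cover counting error only. Of 6 listed pluripotency genes only DPPA4 had a window holding its start, a CpG island window with 0.525% in the vehicle control. Among island start windows of genes outside the family 89.0% were under 20%, so this value cannot check the labelled cell type.

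Protocadherins are cell adhesion proteins, and the clustered ones give each neuron a surface identity of its own. In the alpha and gamma clusters every variable first exon has its own promoter and is joined to constant exons at the end of the cluster, while a beta gene is a single exon. Most promoters are used by chance in only some neurons, and DNA methylation of the promoter and first exon is known to go with silence, whereas binding of CTCF brings a chosen promoter to an enhancer. The C-type genes at the ends of the alpha and gamma clusters (PCDHAC1, PCDHAC2, PCDHGC3, PCDHGC4 and PCDHGC5) are known for a steadier use across neurons.

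RefSeq (GRCh38.p14) lists 59 genes of the family, 16 in alpha (chr5:140786140-141012347), 19 in beta (chr5:141051374-141249365) and 24 in gamma (chr5:141330514-141512975), all on the plus strand. The promoter table of the same build matched 47 of them, with 250 bases before and 50 after the start. In each cluster the stretch of 10 bases held by the most promoters was found on the gene strand and then counted on both strands in all 35116 promoters of the table. ATGATGTCGC stood in 8 of 13 alpha promoters and in 0.0313% of all promoters. GGTGGCGCTG stood in 12 of 14 beta promoters and in 0.276% of all. GCGCCGCTGT stood in 9 of 20 gamma promoters and in 0.131% of all. The first bases of these stretches lay 45 to 88, 2 to 84 and 44 to 99 bases before the start. The beta and gamma stretches share the letters CGCTG, which 41 of the 47 promoters and 48.0% of all promoters held on either strand. These matches describe letters only.

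Among alpha promoters that hold the shared stretch, the 6 measured start windows ran from 1.64% to 84.2% in the vehicle control. The 5 in beta ran from 1.35% to 71.3%, and the 4 in gamma from 31.9% to 90.7%. For each cluster, up to 2 genes with the lowest and 2 with the highest β-value in the vehicle control are shown with the stretch in capitals, among those whose start window had at least 30 calls in every library. The percentage is that of the start window in the vehicle control. The printed bases lie inside that window except for PCDHA4 and PCDHGB6. For PCDHA4 the capitals and both printed CpG sites come before it, in a window that was not measured. For PCDHGB6 all printed bases come before it, in a window with 0 methylated of 98 calls.
PCDHA12 (1.64%, chr5:140875223-140875292, plus strand): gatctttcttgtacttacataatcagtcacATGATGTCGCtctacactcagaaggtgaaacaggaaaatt
PCDHA4 (2.21%, chr5:140806958-140807027, plus strand): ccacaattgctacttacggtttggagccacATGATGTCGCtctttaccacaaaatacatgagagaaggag
PCDHA1 (78.3%, chr5:140786065-140786134, plus strand): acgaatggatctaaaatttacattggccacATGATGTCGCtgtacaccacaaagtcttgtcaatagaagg
PCDHA5 (84.2%, chr5:140821521-140821590, plus strand): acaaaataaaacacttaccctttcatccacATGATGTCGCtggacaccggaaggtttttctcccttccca
PCDHB2 (1.35%, chr5:141094525-141094594, plus strand): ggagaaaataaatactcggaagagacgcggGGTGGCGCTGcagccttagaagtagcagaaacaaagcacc
PCDHB15 (16.1%, chr5:141245295-141245364, plus strand): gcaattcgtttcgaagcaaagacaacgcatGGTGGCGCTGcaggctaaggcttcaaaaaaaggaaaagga
PCDHB8 (42.2%, chr5:141177758-141177827, plus strand): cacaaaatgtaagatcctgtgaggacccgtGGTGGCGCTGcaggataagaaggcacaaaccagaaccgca
PCDHB3 (71.3%, chr5:141100374-141100443, plus strand): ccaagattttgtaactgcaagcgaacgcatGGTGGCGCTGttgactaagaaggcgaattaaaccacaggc
PCDHGB5 (31.9%, chr5:141397845-141397914, plus strand): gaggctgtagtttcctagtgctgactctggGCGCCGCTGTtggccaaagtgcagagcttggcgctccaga
PCDHGB6 (80.8%, chr5:141407906-141407975, plus strand): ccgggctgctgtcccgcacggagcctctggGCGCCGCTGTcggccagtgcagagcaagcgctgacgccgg
PCDHGB1 (86.5%, chr5:141350007-141350076, plus strand): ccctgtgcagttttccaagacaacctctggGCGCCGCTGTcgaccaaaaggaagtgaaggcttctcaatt
PCDHGA1 (90.7%, chr5:141330385-141330454, plus strand): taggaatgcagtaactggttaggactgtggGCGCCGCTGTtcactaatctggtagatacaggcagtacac

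The C-type promoters held more CpG sites than most of the others. The 4 in the promoter table had 15 to 27 CpG sites in 300 bases, against 2 to 16 with a median of 7.00 in the other 43 and a median of 14 over all promoters. The ranges overlap, since PCDHGB6 had 16 and PCDHAC2 15. The promoter of PCDHAC1 and that of PCDHA4, an alternate alpha gene, are printed whole with each CpG in capitals, to show 27 against 5 CpG sites. The start window of PCDHAC1 (2.53%) holds all 27 sites, whereas that of PCDHA4 (2.21%) begins after the last of its 5, so its value was read downstream of them.
PCDHAC1 (chr5:140926049-140926348, plus strand): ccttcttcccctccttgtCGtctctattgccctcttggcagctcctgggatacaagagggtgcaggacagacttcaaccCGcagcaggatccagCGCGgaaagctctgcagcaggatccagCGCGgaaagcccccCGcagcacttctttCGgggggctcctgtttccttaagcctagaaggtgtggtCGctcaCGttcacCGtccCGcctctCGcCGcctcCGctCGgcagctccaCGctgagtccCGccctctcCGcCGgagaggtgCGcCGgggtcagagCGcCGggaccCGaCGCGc
PCDHA4 (chr5:140806818-140807117, plus strand): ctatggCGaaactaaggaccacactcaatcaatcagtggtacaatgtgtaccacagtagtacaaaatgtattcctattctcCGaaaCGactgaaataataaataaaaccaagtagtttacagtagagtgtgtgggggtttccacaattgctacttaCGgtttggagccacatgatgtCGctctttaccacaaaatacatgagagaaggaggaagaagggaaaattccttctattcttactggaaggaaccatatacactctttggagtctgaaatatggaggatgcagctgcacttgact
Of the 47 promoters, 20 held CCGG, the site at which RRBS cuts, against 63.1% of all promoters, so most of these 300-base stretches had no cut site of their own.

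In CpG islands the clustered protocadherins were more methylated in the iPSCs than islands in general, but in shores and shelves they were less methylated. Of the 160 windows, 96 lay in CpG islands, 34 in shores, 5 in shelves and 25 outside, so that 60.0% were island windows against 17.3% of the whole table. The 96 island windows had a mean β-value of 72.3% (95% counting interval 72.0 to 72.6) in the vehicle control, whereas all 49761 island windows of the table averaged 41.5%. Among these member islands 65.6% were over 80% methylated and 16.7% under 20%, while of all islands 37.6% were over 80% and 51.7% under 20%. The 34 shore windows averaged 63.3% and the 5 shelf windows 67.1%, against 82.1% and 86.9% over all windows of those classes. The 25 windows outside islands averaged 86.9%, close to the 88.1% over all windows of that kind.

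**Figure D1:**
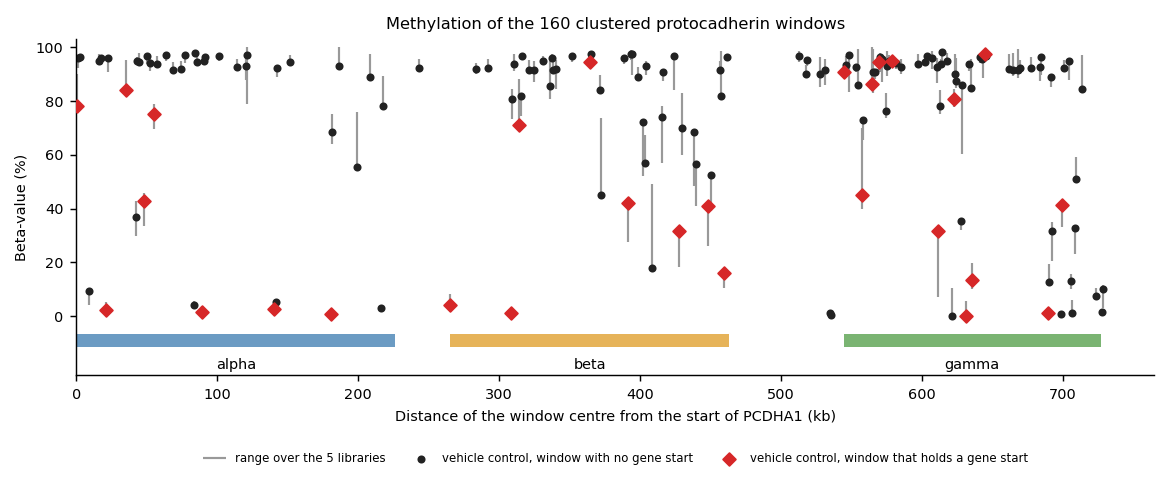
β-value (%) of each of the 160 windows against the distance (kb) of its centre from the start of PCDHA1. Points are the vehicle control (diamonds hold a gene start), grey lines the range over the 5 libraries, and bars the alpha, beta and gamma clusters. Most windows lie over 80%, the windows with a start spread from 0 to 97.7%, and intermediate windows gather in the second part of the beta cluster.

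The means of the alpha, beta and gamma clusters lay close together, and their order depended on how windows were counted. The alpha windows had a mean of 70.9% (70.4 to 71.4), the beta windows 76.3% (75.4 to 77.1) and the gamma windows 71.2% (70.7 to 71.6), against 79.4% over all windows. When windows were assigned by position instead of symbol the means were 71.8%, 74.6% and 74.0%. With at least 100 calls in every library the gamma mean was 77.4%. In each cluster the median window was above 90% (92.1%, 91.6% and 91.1%), since low windows are few: 6 of 30 in alpha, 2 of 26 in beta and 10 of 58 in gamma lay under 20%.

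The clusters were more alike in their mean than in their intermediate windows. By position, 12 of 43 beta windows (27.9%) lay between 20% and 80%, whereas 7 of 42 alpha windows (16.7%) and 10 of 65 gamma windows (15.4%) did. Those of beta were placed unevenly. From PCDHB8 to the end of the cluster 10 of 21 windows were intermediate, and in the part before PCDHB8 2 of 22 were. This division was made after the values were seen, and no test was made of it.

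Gene starts were where the family departed most from its own background. Of the 59 starts, 28 fell in a window of the table, 8 in alpha, 8 in beta and 12 in gamma. Their mean was 45.3% (44.6 to 46.0) against 78.3% (78.0 to 78.5) for the other 132 windows. The start windows were divided almost evenly, with 10 under 20%, 10 between 20% and 80%, and 8 over 80%. Start windows of all other genes in the promoter table were mostly unmethylated, with 75.3% of 15273 under 20%, 9.04% between and 15.7% over 80%, and a mean of 20.4%. Within islands the mean was 49.8% over 15 start windows of the family and 8.95% over those of other genes.

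The dip at the start was narrow. One window upstream of a start the 7 measured windows averaged 65.4%, and 1 and 2 windows downstream the 34 and 39 windows averaged 76.1% and 85.7%. For other genes these values were 55.0%, 39.8% and 74.6%, so next to the start the family was the more methylated on both sides. Many of these downstream windows are CpG islands in the coding exon. Of 65 pairs of touching windows in the family, 16 (24.6%) differed by at least 50 percentage points in the vehicle control, against 8.22% of 104414 pairs in the whole table, and 15 of the 16 did so in all 5 libraries. The exception was the pair in PCDHGA10 that begins at 141413001. The median step was 10.7 points in the family and 4.50 in the table.

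**Figure D2:**
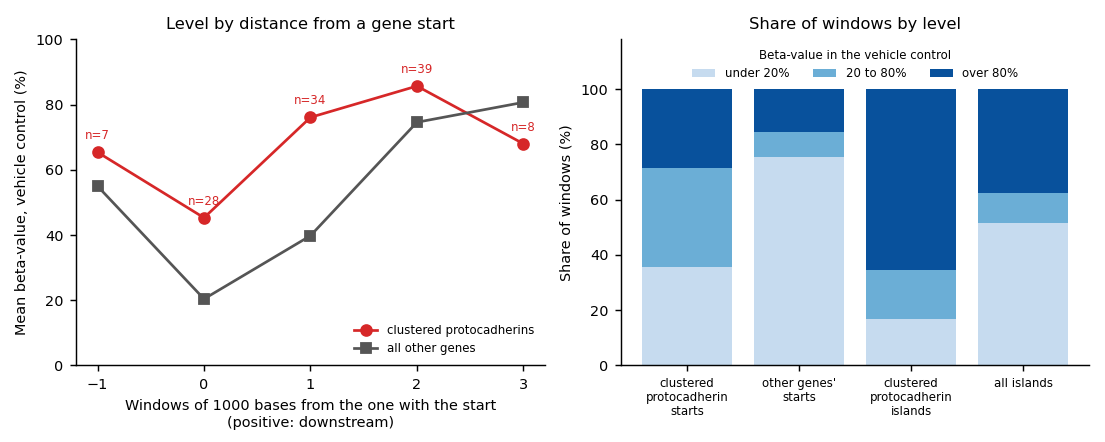
Left, mean β-value (%) in the vehicle control by distance from a gene start in windows of 1000 bases, for the clustered protocadherins (n, windows) and all other genes. Right, share (%) of windows under 20%, from 20% to 80% and over 80%. The family dips to 45.3% at the start and is back at 76.1% in the next window, and its islands are mostly in the highest class.

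In the alpha cluster, 4 of the 8 measured start windows were under 20%. The window of PCDHA4 (chr5:140807001-140808000), which holds 67 bases before the start and the first exon after it, had 2.21%, 5.22%, 2.94%, 4.46% and 2.19% in the vehicle control, etoposide, propyl gallate, theophylline and 5-aza-dc libraries, the order used for values from here on. Its neighbour downstream, an island in the exon, had 96.1%, 92.0%, 94.7%, 97.0% and 90.9%. All 5 libraries thus showed the same sharp boundary within the gene. PCDHA12 (140875001) had 1.64%, 2.90%, 3.70%, 0.553% and 1.96%, and the window after it 94.9% in the vehicle control.

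The other alternate alpha genes with a measured start were partly or mostly methylated. PCDHA7 (140834001) was intermediate in every library, at 43.0%, 37.9%, 45.4%, 33.7% and 46.0%. PCDHA8 (140841001) had 75.4% and PCDHA1 (140786001) 78.3% in the vehicle control. The highest alpha start was that of PCDHA5 (140821001), with 84.2%, 88.7%, 90.8%, 95.3% and 94.8%. For PCDHA2, PCDHA6 and PCDHA11 only a window after the start was measured, with 9.57%, 36.9% and 4.19% in the vehicle control, and for PCDHA11 the next window had 98.0%.

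The C-type alpha genes were unmethylated at the start in all libraries. PCDHAC2 (140966001) was the lowest alpha start, with 0.673% (0.449 to 1.01), 0.944%, 0.899%, 0.917% and 0.947%. PCDHAC1 (140926001) had 2.53%, 1.43%, 1.84%, 1.17% and 1.42%. The unmethylated stretch of PCDHAC1 was longer than that of PCDHA4, since the next window was still at 5.21% and the one after it at 92.4%. After PCDHAC2 the next window had 68.6%. A single low window far from any start (chr5:141002001-141003000) lay in an intron, outside islands, its centre 36024 bases downstream of the start of PCDHAC2, and had 3.22%, 1.51%, 2.63%, 2.11% and 2.60%.

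Beta genes had low, intermediate and high starts. PCDHB1, which stands apart at the head of the cluster, had 4.05%, 8.39%, 4.33%, 5.33% and 3.48% in the window at 141051001. PCDHB2 (141094001) was the lowest, at 1.35%, 0.410%, 1.19%, 2.35% and 0.620%, and the window after it had 80.7% in the vehicle control. At the other end, PCDHB6 (141150001) had 94.5%, 95.6%, 94.8%, 96.1% and 93.3%. Between them, PCDHB15 had 16.1%, PCDHB13 31.8%, the pseudogene PCDHB18P 40.9%, PCDHB8 42.2% and PCDHB3 71.3% in the vehicle control.

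Reads of beta genes can be hard to place where the genes share sequence. After C-to-T conversion, 36.5% of the 100-base stretches of the PCDHB8 transcript were found letter for letter in another beta transcript, most often that of PCDHB13. The share was 19.7% for PCDHB10, 19.3% for PCDHB13, 18.5% for PCDHB17P, 16.3% for PCDHB3, 15.4% for PCDHB2 and 14.8% for PCDHB9, and 18 of 19 beta transcripts shared at least 1 stretch. Other genes shared less, such as PCDHB11 with 11.2%, PCDHB14 and PCDHB18P with 7.94% each and PCDHB1 with 0. Reads in windows of beta genes may be uncertain in their place, and the part of shared reads in the values was not tested.

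By mean, gamma start windows were the highest of the family, with 56.5% over 12 windows against 36.0% in alpha and 37.8% in beta. The 12 values spread widely (standard deviation 38.6 points), and those of PCDHGB7 and PCDHGA3 had as few as 20 and 23 calls. The start windows of PCDHGA4, PCDHGB6, PCDHGC4 and PCDHGA11 hold only 20, 20, 29 and 50 bases before the start. The order of the clusters thus depends in part on where windows end. The starts of PCDHGA1 (90.7%), PCDHGB1 (86.5%), PCDHGA4 (94.6%), PCDHGA5 (95.1%), PCDHGB6 (80.8%) and PCDHGA12 (97.7%) were over 80% in the vehicle control. PCDHGA12 (141430001) was the highest and hardly differed between libraries, at 97.7%, 97.9%, 98.3%, 97.2% and 97.2%. PCDHGA11 (141421001) was low, at 13.3%, 12.7%, 10.3%, 19.7% and 15.2%.

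PCDHGB7 and PCDHGB6 had unmethylated windows read from few calls. In the window of the PCDHGB7 start (141417001), the vehicle control had 0 methylated of 94 calls, which allows up to 3.19%, and the etoposide library 0 of 20, which allows up to 15.0%. For PCDHGB6 the start lies 20 bases into a methylated window, and in the window before it, which holds the rest of the promoter, the vehicle control had 0 of 98 (up to 3.06%) and etoposide 0 of 63 (up to 4.76%). The other libraries had 1.35%, 4.33% and 10.4% there. Between these 2 windows the vehicle control stepped from 0% to 80.8%, so the level given to a start depends on where a window ends.

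Among the C-type gamma genes, PCDHGC3 was unmethylated at its start (141475001), with 1.14% (0.749 to 1.74), 0.873%, 1.49%, 1.46% and 1.29%. The level then climbed over 2 windows, to 12.6% and 88.9% in the vehicle control. PCDHGC4 starts 29 bases into its window (141485001), which had 41.4%, 37.2%, 39.8%, 39.5% and 33.2%, while the window before it had 0.840% in the vehicle control. The start window of PCDHGC5 was not measured. The window after it (141490001) was over 80% in the vehicle control, since the step from there to the window at 141491001 was −81.8 points. Some windows that the table gives to PCDHGC5 in its exon and intron were low or intermediate in the vehicle control. They had 13.1% (141491001), 1.26% (141492001), 32.7% (141494001) and 51.0% (141495001). A further PCDHGC5 intron window, given below, was over 80%, so the gene was not low throughout. Low windows lay at the far end of the gamma cluster (7.37% at 141509001) and just past it (1.61% at 141513001) in the vehicle control.

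The family's mean in each chemical's library differed from that in the vehicle control by about a point or less. Over the 160 windows the means were 72.5%, 73.0%, 72.6%, 73.4% and 71.9%. Etoposide differed from the vehicle control by 0.523 points (0.176 to 0.871), propyl gallate by 0.0520 (−0.295 to 0.399), theophylline by 0.883 (0.534 to 1.23) and 5-aza-dc by −0.568 (−0.949 to −0.187). Over all windows of the table these differences were 0.513, 0.566, 0.975 and −1.03 points. The 4 comparisons share the vehicle control library.

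By cluster, the largest mean differences were 1.37 points (0.795 to 1.94) in gamma after theophylline, 1.16 (0.533 to 1.80) in alpha after propyl gallate and −1.15 (−2.26 to −0.0370) in beta after 5-aza-dc. The alpha value after propyl gallate rests on few windows, since its median was −0.0595 points, and the alpha value after etoposide of 0.997 points became −0.289 when the calls of all windows were pooled. The beta value after propyl gallate was −0.567 points (−1.69 to 0.559) by symbol and −1.71 by position. Over the 28 start windows etoposide differed by −1.39 points (−2.37 to −0.410), propyl gallate by 1.22 (0.223 to 2.22), theophylline by 0.820 (−0.107 to 1.75) and 5-aza-dc by 0.402 (−0.721 to 1.53). The medians over these windows were −0.135, 0.510, 0.992 and −0.320 points. Such means lean on single windows with wide differences and few calls, such as those of PCDHGB5 and PCDHGA3, with as few as 71 and 23.

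Single windows were compared by a two-sided Fisher's exact test on the calls, adjusted by Benjamini-Hochberg over all 288391 windows, and were called at an adjusted p under 0.01 with a difference of at least 10 points. This test compares 2 libraries and not 2 conditions, and calls from the same read make its p-values too small. Called windows of the family numbered 6 of 160 for etoposide (3 higher and 3 lower), where 2.32% of all windows were called (1.36% higher, 0.956% lower). For propyl gallate they numbered 13 (5 higher and 8 lower), where 2.22% of all windows were called (1.34% higher, 0.880% lower). For theophylline they numbered 6 (5 higher and 1 lower), where 2.27% of all windows were called (1.59% higher, 0.681% lower). For 5-aza-dc they numbered 10 (4 higher and 6 lower), where 3.64% of all windows were called (0.876% higher, 2.76% lower). As a share of the family this is 3.75%, 8.12%, 3.75% and 6.25%.

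These shares are read beside the level and depth of the windows. Intermediate windows were called more often than others throughout the table, and 18.1% of the family's windows were intermediate against 9.58% of all windows. The family's intermediate windows also had more calls, with a median over windows of 768 in the shallowest library against 278. Among windows with 20% to 80% in the vehicle control and at least 300 calls in every library, 7 of 22 of the family (31.8%) were called for propyl gallate against 5.87% of 13166 others. In the same windows the shares were 9.09% against 5.93% for etoposide, 9.09% against 6.31% for theophylline and 18.2% against 10.2% for 5-aza-dc. Touching windows and windows with shared sequence are not independent of each other, so no test was made of these shares. The minimum of 300 calls was chosen after the values were seen. It did not make the 2 sets alike in depth. The median over windows in the shallowest library was still 1229 calls for the family against 648 for the others.

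**Figure D3:**
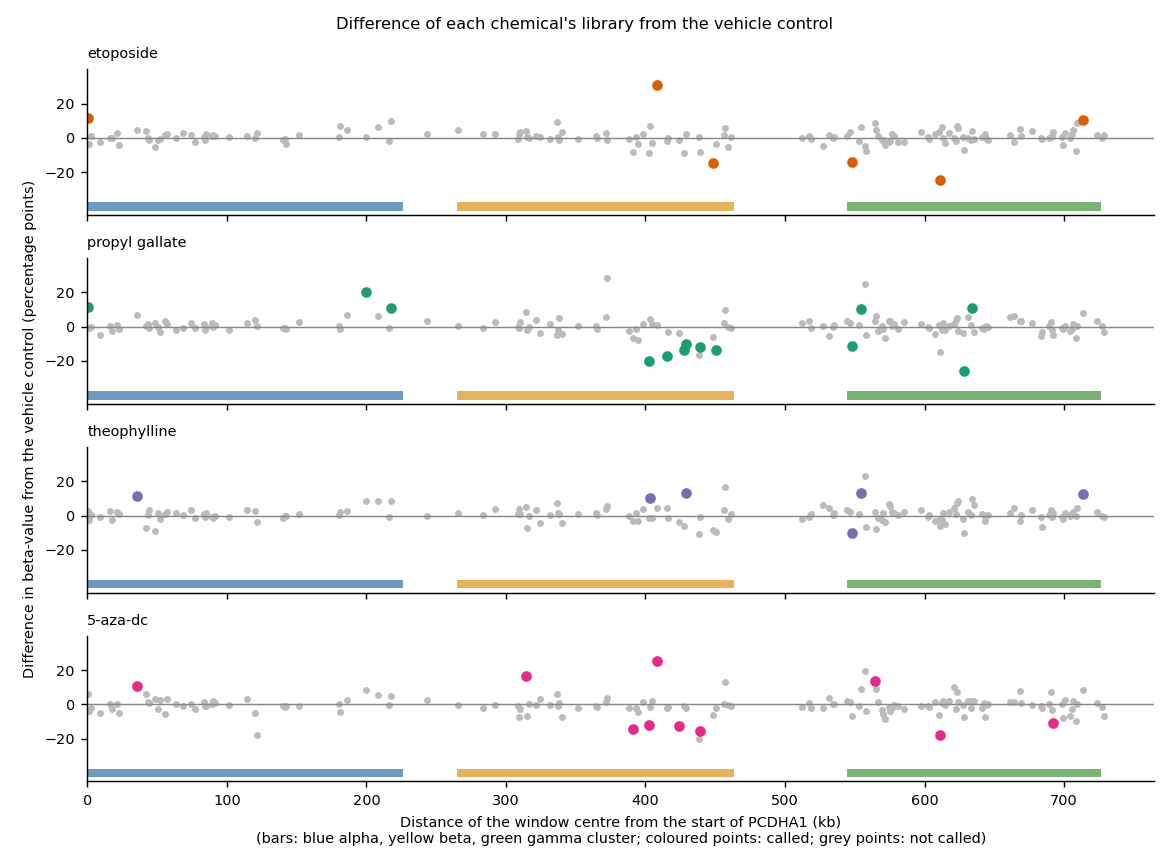
Difference in β-value (percentage points) of each chemical's library from the vehicle control, for the 160 windows, against the distance (kb) of the window centre from the start of PCDHA1. Coloured points are called windows and bars the clusters. In the propyl gallate library 6 called windows in the second part of the beta cluster are all lower than the vehicle control.

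The propyl gallate library was lower in a run of beta genes. From PCDHB8 to the end of the cluster, the 21 windows averaged 68.4%, 67.6%, 63.1%, 68.7% and 65.6%. The difference of propyl gallate from the vehicle control was −5.30 points (−6.50 to −4.10), with 15 of 21 windows lower and 6 called lower. In the part before PCDHB8 it was 1.72 points (0.585 to 2.85) over 22 windows, with no window called. The same part after PCDHB8 differed by −2.77 points (−3.92 to −1.61) in the 5-aza-dc library, with 4 windows called lower and 1 higher. Beta genes with shared sequence lie in both parts, and this division was chosen after the values were seen.

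Among its windows, that within PCDHB9, as RefSeq places the gene (chr5:141188001-141189000) had 72.4%, 63.8%, 52.3%, 71.0% and 60.4%. It was called lower for propyl gallate (−20.1 points, adjusted p = 7.26e-16, Fisher's exact test) and for 5-aza-dc (−12.0 points). In the next window of the same gene (141189001) the values were 57.2%, 63.9%, 62.0%, 67.4% and 55.7%, where theophylline was called higher by 10.2 points and propyl gallate was not lower. The direction was thus not shared by both windows of the gene.

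The window in PCDHB11 (141201001) had 74.3%, 72.7%, 57.0%, 78.4% and 72.2%, and the propyl gallate library alone was called, as lower (−17.3 points, adjusted p = 2.51e-19, Fisher's exact test). In PCDHB13 the exon window (141215001) had 70.0%, 72.0%, 60.0%, 83.0% and 67.9%, so that propyl gallate was called lower by 10.0 points and theophylline higher by 13 points. Its start window (141213001) had 31.8%, 22.9%, 18.4%, 25.8% and 30.6%, and only the propyl gallate library was called lower, by 13.4 points. The PCDHB13 differences of propyl gallate, and those of PCDHB14 and PCDHB18P from it, were added after their values were seen.

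PCDHB14 and PCDHB18P also held windows called lower for propyl gallate, by 11.9 and 13.5 points. The PCDHB14 window (141225001) had 56.6%, 48.3%, 44.7%, 56.0% and 41.0%, and was called lower for propyl gallate and, by 15.6 points, for 5-aza-dc (adjusted p = 4.61e-27, Fisher's exact test). The exon window of the pseudogene PCDHB18P (141236001) had 52.5%, 49.0%, 39.0%, 43.2% and 50.5%, and its start window (141234001) 40.9%, 26.3%, 35.1%, 32.5% and 34.8%. At that start the vehicle control was the highest library, and etoposide was called lower by 14.6 points (adjusted p = 5.28e-06, Fisher's exact test).

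The widest range of the family, 31.1 points, was in PCDHB10. Its window at chr5:141194001-141195000, an island window within the gene as RefSeq places it, had 18.1%, 49.2%, 19.3%, 22.6% and 43.6%, from at least 481 calls each. The etoposide and 5-aza-dc libraries stood together above the other 3. They were called higher by 31.1 points (adjusted p = 1.42e-25, Fisher's exact test) and 25.5 points (adjusted p = 2.64e-18, Fisher's exact test). PCDHB10 shares 19.7% of its 100-base stretches with another beta gene, most often PCDHB9.

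Further windows with a wide range were less deeply read. The start window of PCDHGA3 (141343001) had 45.0%, 40%, 70.2%, 68.3% and 64.3%, a range of 30.2 points with as few as 23 calls, and none of its differences was called. The exon window of PCDHB17P (141158001) had 45.2%, 44.1%, 73.7%, 51.1% and 48.8%, a range of 29.6 points with as few as 41 calls, and none of its differences was called. The PCDHGA10 exon window (141414001) had 86.1%, 79.2%, 60.2%, 76.1% and 78.8%, with 81 calls after propyl gallate, which was called lower by 25.9 points (adjusted p = 0.000614, Fisher's exact test). The window before it in PCDHGA10, with at least 4891 calls in every library, stayed between 32.0% and 36.0%.

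The start of PCDHGB5 (chr5:141397001-141398000) was lower in all 4 chemical libraries than in the vehicle control, with 31.9% (25.2 to 39.4), 7.14%, 17.2%, 26.0% and 14.2%. Etoposide was called lower by 24.8 points (adjusted p = 0.000561, Fisher's exact test) and 5-aza-dc by 17.7 points (adjusted p = 0.00903, Fisher's exact test). The window held 163 calls in the vehicle control and 71 and 99 in these libraries. In the intron of PCDHGA1 (141334001) the vehicle control was also the highest library, at 97.2% against 83.4%, 85.9%, 87.2% and 90.2%, and 3 of the 4 chemicals were called lower from this 1 control value of 251 calls.

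At other windows the vehicle control was the lowest library. The start of PCDHA1 (140786001) had 78.3%, 90.0%, 89.9%, 80.8% and 84.2%, and etoposide and propyl gallate were called higher by 11.7 and 11.5 points. The start of PCDHA5 was called higher for theophylline (11.1 points, adjusted p = 5.34e-13, Fisher's exact test) and for 5-aza-dc (10.6 points). The PCDHGA2 exon window (141340001) had 86.2%, 92.5%, 96.4%, 99.5% and 95%, with propyl gallate and theophylline called higher. The PCDHGC5 intron window (141499001) had 84.7%, 95.1%, 92.7%, 97.2% and 92.9%, with etoposide and theophylline called higher by 10.3 and 12.5 points.

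A pair of windows at the end of the alpha cluster was called higher in the propyl gallate library alone. The window outside islands at 140985001 had 55.5%, 56.1%, 75.9%, 63.9% and 64.2%, a difference of 20.4 points (adjusted p = 2.26e-08, Fisher's exact test). That at 141003001 had 78.4%, 88.4%, 89.4%, 86.9% and 83.4%, a difference of 11.0 points. In the first the propyl gallate library was above all the others, and in the second the vehicle control was below all the others.

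For 5-aza-dc, start windows were called in both directions. The start of PCDHB3 (141100001) had 71.3%, 75.4%, 79.9%, 76.2% and 88.1%, and was called higher by 16.8 points (adjusted p = 4.40e-06, Fisher's exact test). That of PCDHGB1 (141350001) was called higher by 13.5 points on 56 calls. The start of PCDHB8 had 42.2%, 34.0%, 35.4%, 38.8% and 27.7%, and was called lower by 14.5 points (adjusted p = 3.70e-05, Fisher's exact test). Of the 28 start windows, 3 were called higher and 2 lower (17.9% called, against 2.10% of the start windows of other genes). For etoposide, propyl gallate and theophylline these shares were 10.7%, 7.14% and 3.57%, against 1.32%, 1.36% and 1.43%. The 2 sets differ in level, since 35.7% of the family's starts and 9.04% of the others were between 20% and 80%. For 5-aza-dc, 10.2% of such windows outside the family were called, and 0.522% of those under 20%. The C-type starts and those of PCDHA4, PCDHA12, PCDHB1 and PCDHB2 were not called in any library, and the largest range among them was 8.20 points, at PCDHGC4.

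When the pooled calls of the other 4 libraries were used in place of the vehicle control, the calls numbered 2 for etoposide, 8 for propyl gallate (1 higher and 7 lower), 3 for theophylline and 6 for 5-aza-dc. Against this reference 1.40%, 1.29%, 1.32% and 3.37% of all windows were called. Several differences given above were then no longer called. At the PCDHGC5 intron window etoposide differed by 3.71 points (adjusted p = 0.235, Fisher's exact test) and theophylline by 6.05 (adjusted p = 0.0302, Fisher's exact test). At the PCDHGA1 intron window etoposide differed by −5.78 points and theophylline by −1.01 (adjusted p = 0.778, Fisher's exact test). At the PCDHA1 start etoposide and propyl gallate were higher by 7.06 and 6.57 points, under the 10 that a call needs.

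The calls at PCDHGB5 were lost as well, with −16.0 points for etoposide (adjusted p = 0.0106, Fisher's exact test) and −8.51 for 5-aza-dc (adjusted p = 0.159, Fisher's exact test). Theophylline was higher by 5.59 points at the PCDHA5 start, 7.47 at the PCDHGA2 exon window and 7.53 in the PCDHB9 window at 141189001, and none of these was called. Propyl gallate was higher by 5.29 points at 141003001 (adjusted p = 0.105, Fisher's exact test). The etoposide difference at the PCDHB18P start was −9.78 points, and that of 5-aza-dc at the PCDHGB1 start was 10.4 (adjusted p = 0.0204, Fisher's exact test). At PCDHB10 both calls held, with 22.9 points for etoposide and 15.9 for 5-aza-dc.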

How the data were processed

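Genomic DNA of human iPSCs was read by RRBS, in 5 libraries of 1 condition each. Per the labels, reads were processed with Trim Galore 0.5.0, Bismark 0.20.0, SAMtools 1.9 and methylKit 1.10.0 on hg38. The authors summed CpG calls over windows of 1000 bases, removed windows with under 10 calls or past the 99.9th percentile, scaled the coverage between libraries and merged them. The deposited vehicle control calls are counts. Those of the other libraries are a score, which the authors made by multiplying counts and rounding them. The factors were 1.18 for etoposide, 1.15 for theophylline, 1.09 for propyl gallate and 1.21 for 5-aza-dc. The deposited β-value is a fraction. No per-sample column was left unused.

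Levels are deposited β-values. Fisher's exact test was planned on counts, so it and the intervals used calls worked back from these factors. On simulated data for 5-aza-dc against the vehicle control, 184 of 200 windows changed by 25 points were called, among 288391, and 0 unchanged ones. In the real libraries, calls of the same read and PCR copies are not independent and make the p-values too small. The simulated counts therefore cannot give the share of false calls there. The median window held 398 to 499 calls per library. Starts are those of RefSeq genes, and transcripts are those of GENCODE v44 on GRCh37, used for their letters only.

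The members and lists were chosen with earlier results of these data known. Named were the C-type genes and PCDHB1, the lowest and highest start window of each cluster with at least 30 calls, each chemical's called windows (all up to 6, otherwise the 3 largest rises and falls), and the 3 widest ranges with at least 30 calls in every library. Other windows were named after their values were seen. Alternatives covered thresholds, depth, scaling, the reference, weighting and cluster borders. Python with numpy, scipy, pandas and numba was used.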

Additional observations from a re-analysis of the deposited data

How the results depend on the processing

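No paired analysis was possible because each condition has 1 library, and for the same reason no library could be left out of a group. With at least 25 points, the etoposide, propyl gallate and 5-aza-dc libraries had 1 called window each and theophylline 0. Of all windows, 0.191%, 0.177%, 0.309% and 0.175% were called, in that order. By Fisher's exact test at an unadjusted p under 0.05, family windows numbered 65 (etoposide), 72 (propyl gallate), 66 (theophylline) and 70 (5-aza-dc). No share of all windows was taken at that threshold, so nothing is drawn from these counts. With no minimum difference the counts were 30 (etoposide), 39 (propyl gallate), 32 (theophylline) and 37 (5-aza-dc), where 10.1%, 10.3%, 11.0% and 14% of all windows were called. With the other 4 libraries pooled as the reference they numbered 2, 8, 3 and 6. By gene symbol alone 5-aza-dc had 4. With the deposited calls, a minimum of 30 or 100 calls in both libraries or an adjusted p under 0.001, each count stayed within 1.5 times.

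For the mean difference in alpha, pooled calls gave −0.289 points for etoposide and 0.243 for propyl gallate, whose median was −0.0595. In beta, propyl gallate gave −2.39 points with at least 100 calls in every library and −1.71 by position. In gamma, 5-aza-dc gave −1.07 with pooled calls. The other differences stayed within their counting interval.

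The alpha mean in the vehicle control was 69.5% with pooled calls, 92.1% as a median, 70.0% and 69.2% with at least 30 and 100 calls in every library and 71.8% by position. The beta mean was 91.6% as a median and 74.6% by position. The gamma mean was 72.0% with pooled calls, 91.1% as a median, 72.9% and 77.4% with at least 30 and 100 calls and 74.0% by position. Start windows gave 54.7% when windows from 1000 bases before to 500 after a start were taken, 41.8% as a median and 47.0% with at least 30 calls, and the other windows 80.9%, 92.3% as a median and 77.8% with pooled calls. The cause of these shifts was not tested. The start windows of PCDHGA3 and PCDHGB7 and the alpha window at 140907001 had as few as 23, 20 and 16 calls in a library.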

Other observations

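At 141320001 and 141321001, island windows with no symbol near those given to TAF7, a subunit of the general transcription factor TFIID that lies between the beta and gamma clusters, the vehicle control had 1.21% and 0.450%, and the range over the 5 libraries was 0.0958 and 1.18 points. The island windows of SLC25A2, a mitochondrial ornithine carrier, had 90.3% and 95.4%. The window given to RN7SL68P (141478001), a pseudogene of the signal recognition particle RNA inside the gamma cluster, had 31.6%, 35.2%, 27.0%, 33.0% and 20.5% in the vehicle control, etoposide, propyl gallate, theophylline and 5-aza-dc libraries, and was called lower for 5-aza-dc by 11.1 points.

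Genes outside the clusters were looked at from 2 lists. Among 16 regulators of protocadherin promoter choice, cohesin and DNA methylation, such as CTCF, RAD21 and SMCHD1, 17 start windows of 12 genes were all under 20% in the vehicle control (0 to 11.5%). Of the 167 windows of these genes, 2 were called higher and 2 lower for etoposide, 2 and 1 for propyl gallate, 4 and 0 for theophylline, and 1 and 1 for 5-aza-dc. Of all windows, 2.32% (etoposide), 2.22% (propyl gallate), 2.27% (theophylline) and 3.64% (5-aza-dc) were called. Among 12 non-clustered protocadherins, 5 of 8 start windows were under 20%. Of their 97 windows, 0 were called for etoposide, 1 for propyl gallate (higher), 0 for theophylline and 2 for 5-aza-dc (higher). None of the 44 windows of the 6 pluripotency genes was called for any chemical. The 1 measured start of the 5 listed fibroblast genes, that of TWIST2, had 56.2%, and of 42 fibroblast gene windows 2 were called lower for 5-aza-dc and 0 otherwise.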
